A study of Mus musculus with 4 samples.

Results

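The genes of the major histocompatibility complex (MHC) and of antigen presentation were examined in naive CD4+ T cells of TACI-/- and wild-type (WT) mice. Members were all genes whose array symbol begins with H2-, the mouse MHC prefix, together with Cd74, B2m, Ciita, Nlrc5, Tap1, Tap2, Tapbp, Psmb8, Psmb9, Psmb10, Erap1 and Calr, where a probe set carried that symbol alone. The rule found 45 genes of the 22180 with such a probe set, 34 of them with H2- names. Of the 45, 32 passed a filter on low values and were tested, and 13 lay below it on all 4 arrays.

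All mice were of the C57BL/6 strain. TACI-/- mice lack the product of Tnfrsf13b, a receptor for the cytokines BAFF and APRIL studied mostly in B cells. Cells were sorted from spleens and lymph nodes as CD4+ cells with high CD62L, low CD44 and no CD25, and each genotype had 2 arrays, 4 in all (Affymetrix Mouse Gene 2.0 ST, 1 colour), which the titles call biological replicates. How the TACI allele was made, the age of the mice and whether tissue of several mice was joined in a sample are not given in the sources used here. Values are log2 levels per probe set, and each difference is the TACI-/- mean less the WT mean in log2 units.

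MHC class I molecules, made of a heavy chain and beta-2-microglobulin, stand on nearly all nucleated cells and present peptides that the proteasome cuts and the TAP transporter brings into the endoplasmic reticulum. Class II molecules, pairs of an alpha and a beta chain guided by the invariant chain, are made mainly by B cells, dendritic cells and macrophages and present peptides to CD4+ T cells; mouse T cells make little or none. The transactivator CIITA drives class II genes and NLRC5 drives class I genes, both through a conserved promoter module that includes the Y box.

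No member passed the test of genotype. Of 32 tested members, 0 had an adjusted p under 0.05 (limma, Benjamini-Hochberg over 13782 genes), where 0.138% of all genes tested passed. At an unadjusted limma p under 0.05, 5 of the 32 were called, H2-Aa and H2-Ab1 in the direction of higher levels in TACI-/- cells and H2-Q10, H2-Q1 and H2-T24 in the direction of lower levels, and 8.78% of all genes tested were called by this looser rule. The 2 higher members are class II genes, where 4.94% of all genes were called higher, and the 3 lower ones nonclassical class I genes, where 3.84% were called lower. The count was 3 without TACI-/- replicate 1 or without WT replicate 1. Over the 32 members the median difference was -0.05, against 0.0074 over all genes tested, with 12 positive and 20 negative; over all genes tested 51.8% were positive.

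**Figure D1:**
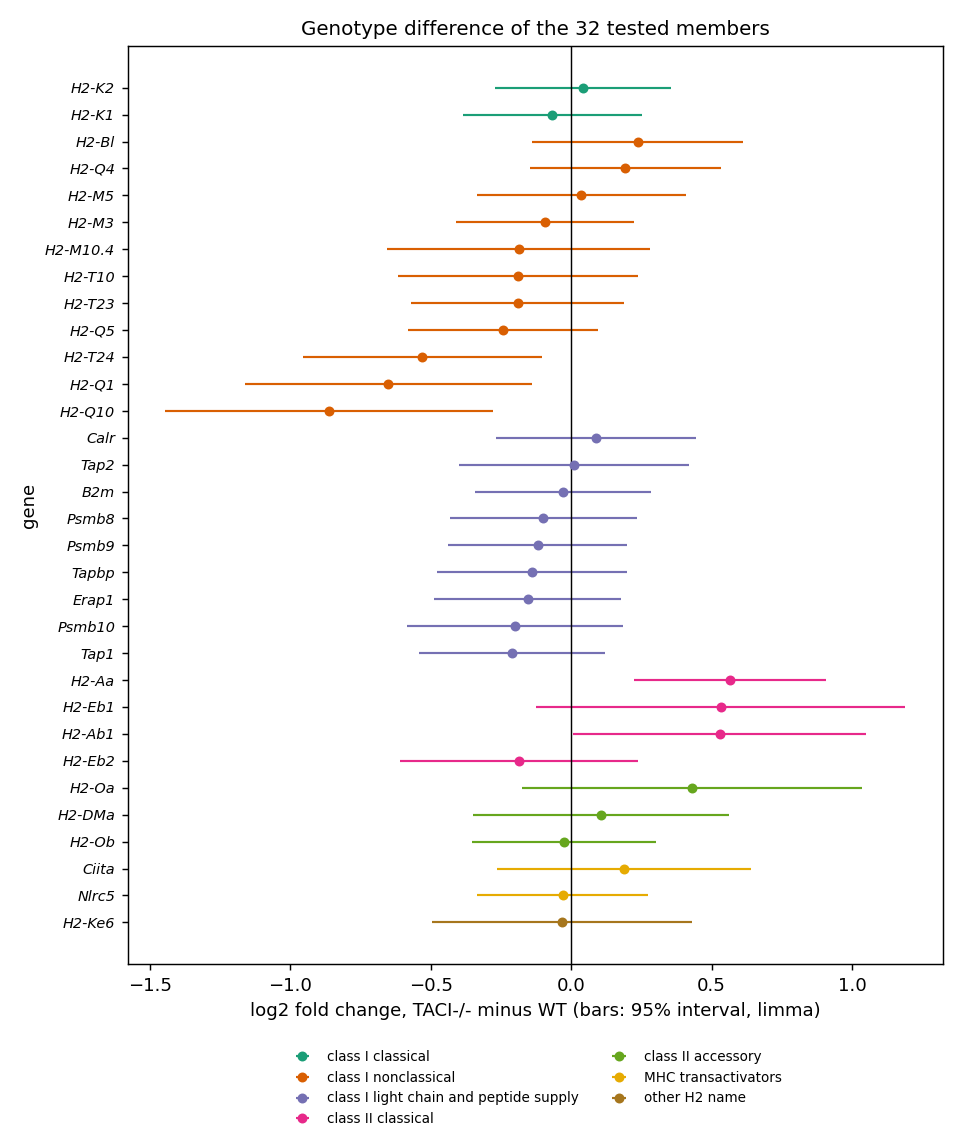
The horizontal axis is the log2 fold change (TACI-/- minus WT) and each row is one of the 32 tested members, coloured by group; points are estimates from 2 arrays per genotype and bars are 95% intervals from limma. The bars of H2-Aa and H2-Ab1 lie above 0, those of H2-Q10, H2-Q1 and H2-T24 below 0, and all others cross 0.

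Among class II genes, the alpha and beta chain genes H2-Aa, H2-Ab1 and H2-Eb1 had nearly equal differences of 0.57, 0.53 and 0.53, about 1.48-fold, 1.44-fold and 1.45-fold higher means in TACI-/- cells, and none passed the adjusted test. H2-Aa and H2-Ab1 encode the chains of I-A, the class II molecule of C57BL/6 mice. The promoters of H2-Aa and H2-Eb1 are shown because these genes had like mean differences and both windows hold the Y box. Without TACI-/- replicate 1 their differences were no longer alike, at 0.46 and 0.10. The sequences are RefSeq sequences of GRCm38.p6, from 250 bases before to 50 after the start of the gene. Capitals mark the Y box letters CTGATTGG.
H2-Aa (chr17:34287774-34288073, minus strand): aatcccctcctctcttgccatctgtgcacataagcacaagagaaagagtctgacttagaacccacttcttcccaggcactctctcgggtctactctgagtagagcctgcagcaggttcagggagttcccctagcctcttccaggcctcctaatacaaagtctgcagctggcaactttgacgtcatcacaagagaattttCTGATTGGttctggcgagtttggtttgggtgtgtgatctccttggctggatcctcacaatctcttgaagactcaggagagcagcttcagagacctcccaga
H2-Eb1 (chr17:34305617-34305916, plus strand): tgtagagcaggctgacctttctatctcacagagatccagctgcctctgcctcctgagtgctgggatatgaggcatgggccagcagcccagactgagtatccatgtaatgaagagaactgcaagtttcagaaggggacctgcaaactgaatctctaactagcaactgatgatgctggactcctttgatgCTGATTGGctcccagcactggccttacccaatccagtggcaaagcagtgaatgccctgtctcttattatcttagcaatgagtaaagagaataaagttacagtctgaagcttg
The Y box began 51 bases before the start of H2-Aa and 62 before that of H2-Eb1. On either strand, it was found in 4.1% of the 32851 promoter windows and in 16 of the 33 members with a window. Members that hold it had differences of both signs, such as H2-Oa (0.43) and H2-Eb2 (-0.19), Tap1 (-0.21) and H2-T23 (-0.19). A link between the Y box and the differences was not tested. The motifs were chosen after these sequences had been seen, and a match is a description of letters.

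H2-Aa was at 5.34 and 5.14 log2 units in TACI-/- replicates 1 and 2 and at 4.61 and 4.75 in WT replicates 1 and 2. Both TACI-/- arrays were above both WT arrays, as for 20.5% of all genes tested. The difference was 0.57 ± 0.14 (SE, limma unadjusted p = 0.00628, adjusted p = 0.327), and its 95% interval ran from 0.22 to 0.91. The unadjusted p of H2-Aa was under 0.05 under all 13 alternative settings, with differences from 0.46 to 0.67.

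H2-Ab1 was at 6.40 and 5.77 in TACI-/- cells and at 5.62 and 5.50 in WT cells. TACI-/- replicate 1 stood above the other 3 arrays, and replicate 2 lay above both WT arrays by less than its distance from replicate 1, which was 0.63. The difference was 0.53 ± 0.22 (SE, limma unadjusted p = 0.0476, adjusted p = 0.568). Without TACI-/- replicate 1 it was 0.21, and the unadjusted p was under 0.05 under 6 of the 13 alternative settings.

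H2-Eb1 was at 5.62 and 4.76 in TACI-/- cells and at 4.76 and 4.55 in WT cells. Here the groups touched, since TACI-/- replicate 2 had the value of WT replicate 1, and the high mean came from replicate 1 alone. The difference was 0.53 ± 0.27 (SE, limma adjusted p = 0.652), and 0.10 without that replicate.

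The second E beta gene, H2-Eb2, was at 4.14 and 4.38 in TACI-/- cells and at 4.63 and 4.25 in WT cells. Its groups overlapped and its difference was -0.19 ± 0.18 (SE, limma adjusted p = 0.83), of the opposite sign to that of its neighbours. H2-Ea, the E alpha gene, which C57BL/6 mice do not express because of a defect in this gene, lay between 2.69 and 2.81, below the filter on all 4 arrays. The 4 tested class II chain genes had a median difference of 0.53, which was 0.16 without TACI-/- replicate 1.

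Among the class II accessory genes, the differences of the 3 tested ran from -0.03 to 0.43. H2-Oa, the alpha chain of H2-O, which restrains peptide exchange in B cells, was at 5.50 and 4.73 in TACI-/- cells and at 4.58 and 4.79 in WT cells. As with H2-Eb1, TACI-/- replicate 1 was high and replicate 2 lay among the WT values; the difference was 0.43 ± 0.25 (SE, limma adjusted p = 0.699), and 0.05 without replicate 1. Its partner H2-Ob was at 5.68 and 5.62 against 5.58 and 5.76, a difference of -0.03 ± 0.14 (SE).
H2-DMa, a chain of the H2-DM peptide exchange molecule, was at 5.72 and 5.26 against 5.26 and 5.50, with a difference of 0.11 ± 0.19 (SE). The H2-DM beta chain genes H2-DMb1 and H2-DMb2 lay between 2.13 and 2.73, under the filter on every array, which leaves the level of H2-DM as a pair unread. No accessory gene passed either the adjusted or the looser rule.

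Ciita, the class II transactivator, was at 5.16 and 5.17 in TACI-/- cells and at 5.23 and 4.73 in WT cells. The groups overlapped, with WT replicate 2 the low array, and the difference was 0.19 ± 0.19 (SE, limma adjusted p = 0.841). Its 95% interval, -0.27 to 0.64, includes a change as large as that of H2-Aa. Cd74, the invariant chain gene, had no probe set of its own: the array annotation pairs its probe set with a microRNA gene as well, so its values are assigned to neither.

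**Figure D2:**
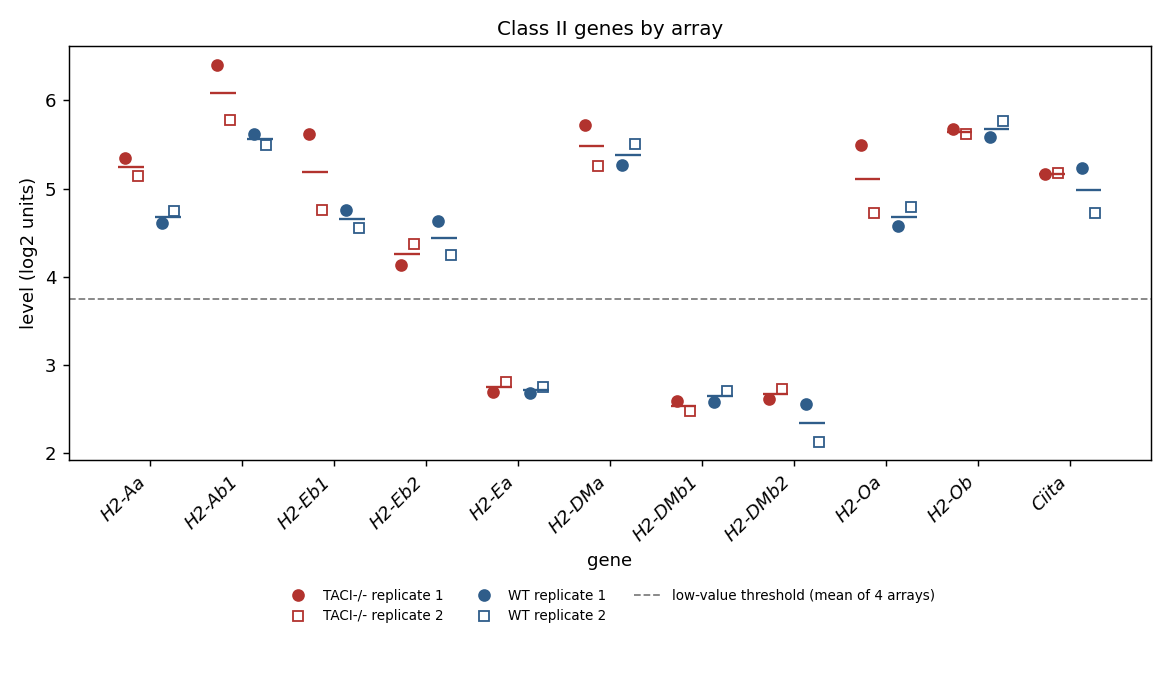
The vertical axis is the log2 level of 10 class II genes and Ciita on each array, red for TACI-/- and blue for WT, filled circles for replicate 1 and open squares for replicate 2; short lines are the means of 2 arrays and the dashed line is the low-value threshold. TACI-/- replicate 1 is the highest array for H2-Aa, H2-Ab1, H2-Eb1, H2-DMa and H2-Oa, and H2-Ea, H2-DMb1 and H2-DMb2 lie below the threshold.

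Markers of cells that carry class II were set beside these genes. Of the 20 B cell markers listed, 17 had a probe set of 1 symbol and 9 were tested. Ly86, at 4.33 and 3.91 against 3.22 and 3.51, passed the filter only through the TACI-/- arrays and so had to differ; it is left out of the counts that follow. Of the other 8, 7 had positive differences, with a median of 0.24, and 1 had an unadjusted limma p under 0.05 (12.5%, against 8.78% of all genes tested), Bank1. Bank1, a B cell adaptor, was at 5.67 and 5.30 against 4.93 and 5.15 (difference 0.44 ± 0.17, SE, limma adjusted p = 0.56). The B cell receptor chains Cd79a and Cd79b had differences of 0.29 and 0.35, and the B cell transcription factor Pax5 0.28.
Ms4a1 (CD20) lay below the filter on all 4 arrays, at 3.28 to 3.62. The linear levels of all 17 markers, summed and put back on the log2 scale, gave 10.27 to 10.40 in TACI-/- and 10.46 to 10.58 in WT cells, a sum in which Ighm (difference -0.28) is the brightest member. The sum was thus lower on both TACI-/- arrays than on both WT arrays, with WT replicate 2 the highest. The mean log2 level over the 8 markers without Ly86 ran differently, at 5.38 and 5.18 on the TACI-/- arrays against 5.05 and 5.18 on the WT arrays. TACI-/- replicate 1 was highest in that mean and in 4 of the 8 markers singly. It was the highest array for 3 of the 4 tested class II chain genes, the exception being H2-Eb2, which was lowest there. The same array was highest for 7 of 17 other tested class II pathway genes and 6 of 18 other class I pathway genes. It was also highest for 4 of 12 tested T cell markers and 2 of 11 nonclassical class I genes. The share over all genes tested was not computed. The part of B cell RNA in the class II differences was not tested. In bulk samples fewer cells of a type and less RNA per cell cannot be told apart.

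Markers of other presenting cells were mixed in direction. Of 13 dendritic cell markers with a probe set, 6 were tested, 1 positive and 5 negative, with a median of -0.05. Of the 6, 1 had an unadjusted limma p under 0.05 (16.7%, against 8.78% of all genes tested), Irf8, which was also the positive one. The defining Itgax (CD11c), at 2.74 to 3.19, and Flt3, at 3.01 to 3.69, were below the filter on all 4 arrays. Zbtb46 was below it on 3, and Irf8, which B cells also express, had 0.34 ± 0.13 (SE, limma adjusted p = 0.549). Summed, the dendritic list gave 8.62 to 8.78 in TACI-/- and 8.70 to 8.79 in WT cells. Of 10 tested monocyte and macrophage markers, 5 were positive and 5 negative, with a median of -0.02, and 4 had an unadjusted limma p under 0.05 (40%, against 8.78% of all genes tested), 1 higher and 3 lower. The summed levels of this list were higher on both TACI-/- arrays, at 8.26 and 8.169, than on both WT arrays, at 8.165 and 8.07. In this sum Cd68 is the brightest member, and the closest arrays of the 2 genotypes are nearly equal. The mean log2 level over the 10 tested markers ran differently, at 4.456 and 4.462 on the TACI-/- arrays against 4.517 and 4.449 on the WT arrays. Among the 4 at an unadjusted limma p under 0.05, Cd68 had 0.71 ± 0.17 (SE). Lyz2 had -0.49 ± 0.15, C1qb -0.44 ± 0.14 and Fcer1g -0.36 ± 0.13 (SE). These 4 had limma adjusted p from 0.323 to 0.515, and Csf1r had a difference of -0.15. The sorted type itself was plain, with Cd3e at 11.24 to 11.58 and Cd4 at 10.45 to 10.64. Cd8a lay below the filter on all 4 arrays. The 12 tested T cell markers had 4 positive and 8 negative differences, with a median of -0.04. In 4 of them both TACI-/- arrays were below both WT arrays, where 18.1% of all genes tested did so. Il7r alone of the 12 had an unadjusted limma p under 0.05 (8.33%, against 8.78% of all genes tested). Its difference was -0.48 ± 0.15 (SE, limma adjusted p = 0.452).

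**Figure D3:**
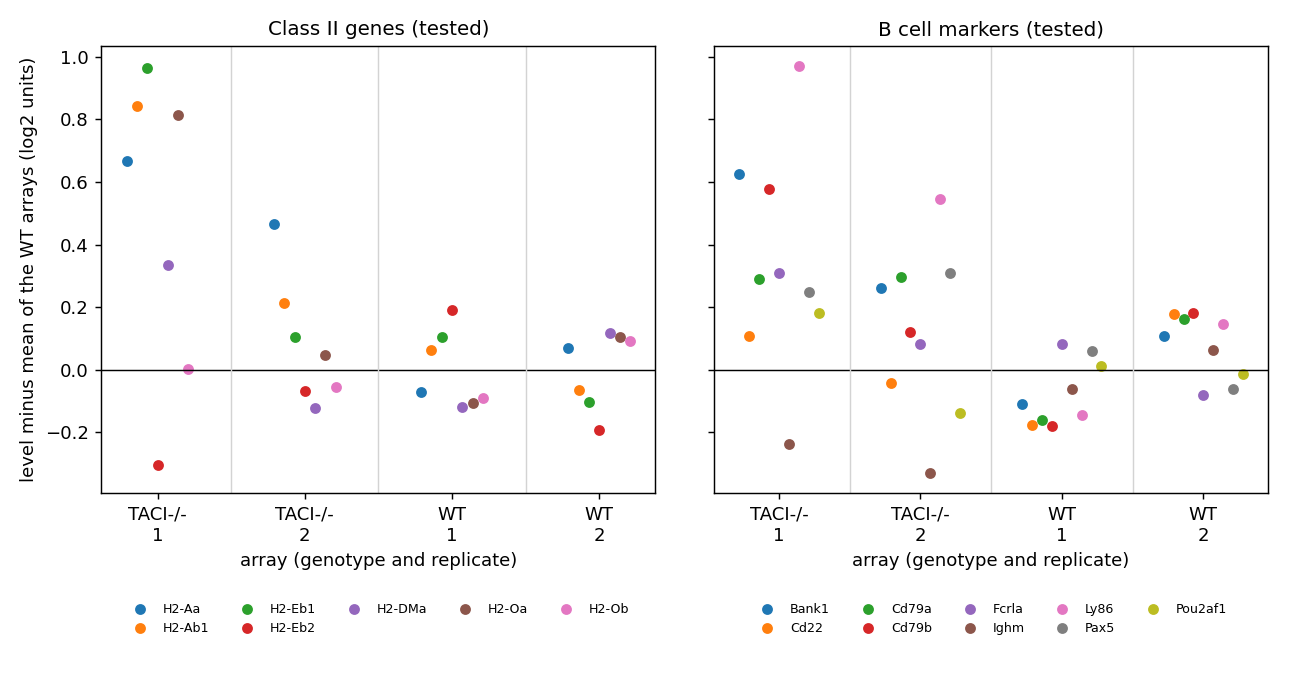
Each point is a gene's log2 level on an array minus the mean of the WT arrays, for the 7 tested class II genes (left) and the 9 tested B cell markers (right); columns are the 4 arrays. H2-Aa, H2-Ab1, H2-Eb1, H2-DMa and H2-Oa among the class II genes and Ly86, Bank1, Cd79b, Fcrla and Pou2af1 among the markers are highest on TACI-/- replicate 1.

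The classical class I gene H2-K1, the heavy chain of H2-K, was at 10.11 and 10.14 in TACI-/- cells and at 10.26 and 10.12 in WT cells. Its groups overlapped, the difference was -0.07 ± 0.13 (SE, limma adjusted p = 0.935), and its sign turned after a second quantile normalization and without WT replicate 1, so no direction is given. The 95% interval, -0.39 to 0.25, does not reach the size of the H2-Aa difference in either direction. H2-D1, the other classical gene of this strain, had only a probe set shared with H2-Q2, which is assigned to neither. H2-K2, which lies beside H2-K1, had 0.04 ± 0.13 (SE), with overlapping groups.

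The nonclassical class I genes lay lower in TACI-/- cells more often than not. Of 11 tested, 8 had negative differences and 3 positive, as under both other scalings, beside 48.2% negative over all genes tested, and the median was -0.19; it was -0.34 without TACI-/- replicate 1, -0.11 without WT replicate 2 and -0.06 with no filter on low values. All 11 were short of the adjusted threshold. Many of these genes are close copies of each other and may be read by the same probes, which makes the value of any one of them uncertain.

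The promoter of H2-Q10 is shown beside that of H2-K1, since H2-Q10 had the largest negative difference among members and H2-K1 almost none, and the windows differ in the letters searched for. Capitals mark the core of the class I kB site, GGATTCCC, the core of the interferon response element, TTTCACTT, and the Y box CTGATTGG, which do not overlap and were each searched on both strands in RefSeq windows of GRCm38.p6.
H2-K1 (chr17:34000284-34000583, minus strand): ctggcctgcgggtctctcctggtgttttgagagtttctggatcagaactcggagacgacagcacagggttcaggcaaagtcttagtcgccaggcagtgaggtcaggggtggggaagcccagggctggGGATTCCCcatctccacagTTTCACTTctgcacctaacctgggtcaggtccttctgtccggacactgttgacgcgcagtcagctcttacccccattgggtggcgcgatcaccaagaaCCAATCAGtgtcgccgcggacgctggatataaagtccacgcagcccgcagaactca
H2-Q10 (chr17:35469839-35470138, plus strand): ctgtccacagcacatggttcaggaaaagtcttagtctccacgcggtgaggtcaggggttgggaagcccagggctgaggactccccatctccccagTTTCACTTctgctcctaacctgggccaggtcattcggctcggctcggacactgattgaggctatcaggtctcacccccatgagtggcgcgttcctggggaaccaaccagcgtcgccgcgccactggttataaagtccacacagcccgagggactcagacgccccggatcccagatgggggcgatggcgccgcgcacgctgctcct
The H2-K1 window held all 3 motifs, the Y box on the opposite strand as CCAATCAG, and the H2-Q10 window held the interferon response core alone. Of all windows, 1.02% held the kB core and 1.6% the interferon response core. Among the 33 members with a window, 1 held the kB core, H2-K1, and 5 held the interferon response core, H2-K1, H2-Q10, H2-Q4, H2-M3 and Erap1. The missing letters say nothing about which factors act there.

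H2-Q10, which encodes a class I molecule that the liver secretes into the blood, was at 8.48 and 8.40 in TACI-/- cells and at 9.68 and 8.92 in WT cells. Both TACI-/- arrays were below both WT arrays, as for 18.1% of all genes tested, with WT replicate 1 standing 0.75 above replicate 2. The difference was -0.86 ± 0.24 (SE, limma unadjusted p = 0.0106, adjusted p = 0.396), a 1.82-fold lower mean, and -0.48 without WT replicate 1; the unadjusted p was under 0.05 under 12 of the 13 alternative settings. The other probe set of the gene gave 4.46 and 4.61 against 5.51 and 5.03, a difference of -0.74 with the same order of groups.

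H2-Q1 was at 3.84 and 4.43 in TACI-/- cells and at 4.87 and 4.70 in WT cells. The groups did not overlap, and TACI-/- replicate 1 was close to the filter; the difference was -0.65 ± 0.21 (SE, limma adjusted p = 0.496), and -0.35 without that replicate. Its unadjusted p was under 0.05 under 10 of the 13 alternative settings. H2-T24 was at 6.17 and 6.14 against 6.91 and 6.46, again without overlap and with WT replicate 1 the highest array. Its difference was -0.53 ± 0.18 (SE, limma adjusted p = 0.504), and -0.30 without WT replicate 1, and its unadjusted p was under 0.05 under 9 of the 13.

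The remaining tested nonclassical genes had smaller differences. H2-T23, which encodes Qa-1, the ligand of the CD94/NKG2 receptors of NK cells, had -0.19 ± 0.16 (SE), with 7.05 and 6.75 against 7.01 and 7.17. H2-T10, of a pair of genes whose products some gamma delta T cells recognise, also had -0.19, and H2-M3, which presents formylated bacterial peptides, -0.09. H2-Q5 had -0.24, without overlap, but its second probe set had 0.15. H2-Q4 had 0.19, also without overlap, and its second probe set -0.14. Among the 11 tested, H2-Bl had the largest positive difference, 0.24 ± 0.16 (SE, limma adjusted p = 0.738). H2-M10.4 and H2-M5 had -0.19 and 0.04. The other 9 genes, all of the H2-M series, some of which are known from sensory neurons of the vomeronasal organ, lay between 2.04 and 3.49, below the filter on all 4 arrays, where differences ran from -0.17 to 0.61 (H2-M1) and were not tested.

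**Figure D4:**
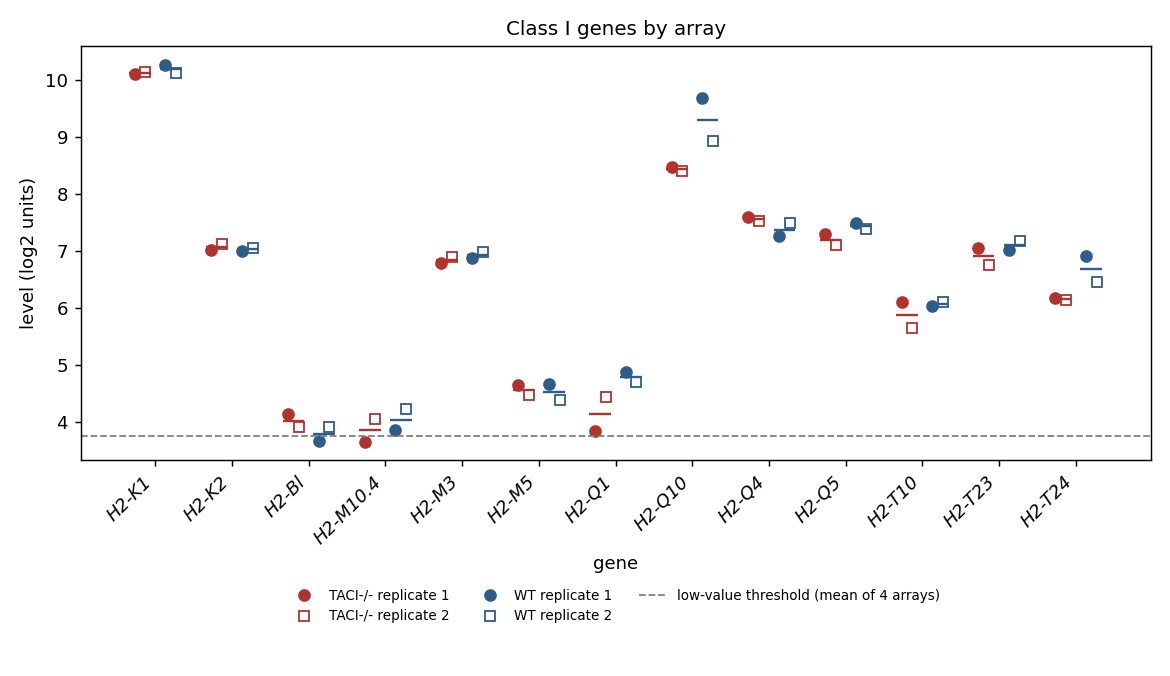
The vertical axis is the log2 level of the 13 tested class I heavy chain genes on each array, with colours, symbols, means and threshold as in the class II plot. H2-Q10, H2-T24, H2-Q1 and H2-Q5 have both WT arrays above both TACI-/- arrays with WT replicate 1 on top, and the values of H2-K1 and H2-K2 overlap.

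Genes that complete and load class I molecules differed little. B2m, the shared light chain, was at 12.48 and 12.55 in TACI-/- cells and at 12.59 and 12.50 in WT cells, with overlapping groups and a 95% interval from -0.34 to 0.28. The peptide transporter gene Tap1 was at 8.50 and 8.43 against 8.77 and 8.58 (difference -0.21 ± 0.14, SE, limma adjusted p = 0.737), while its partner Tap2 had 0.01. The immunoproteasome subunits Psmb8, Psmb9 and Psmb10 had -0.10, -0.12 and -0.20, the aminopeptidase Erap1, which trims peptides, -0.15, and tapasin (Tapbp), which links TAP to class I, -0.14. Calr, the chaperone calreticulin, had the largest positive difference, 0.09 ± 0.15 (SE). Of these 9 genes, 7 were negative (6 after a second quantile normalization and 8 after median centring), 5 had both TACI-/- arrays below both WT arrays, where 18.1% of all genes tested did, none had an unadjusted limma p under 0.05, and the median was -0.12; without TACI-/- replicate 2 the median was -0.03.
Nlrc5, the class I transactivator, was at 7.56 and 7.58 in TACI-/- cells and at 7.60 and 7.59 in WT cells. These 4 values span less than 0.05, and the 95% interval of the difference was -0.33 to 0.27, since limma shares the spread of other genes.

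Other genes of both pathways, listed from knowledge of antigen presentation, were read from the same fit. Of 17 tested class II partners none passed either rule, with a median of -0.05. The lowest unadjusted p belonged to Creb1 (-0.34 ± 0.14), a factor that binds class II promoters, Nfyb (-0.35 ± 0.17), a Y box binding subunit, Sppl2a (-0.27 ± 0.13), the protease that clears the invariant chain stub, and the protease Ctsl (0.34 ± 0.18). The RFX subunits Rfx5, Rfxank and Rfxap had 0.16, 0.19 and -0.0029. Of 18 tested class I partners, 1 had an unadjusted limma p under 0.05 (5.56%, against 8.78% of all genes tested), Psme2, a subunit of the interferon-induced proteasome activator, at 5.41 and 5.53 against 5.76 and 5.89 (difference -0.36 ± 0.14, SE, adjusted p = 0.549). Its partner Psme1 had -0.23, the tapasin relative Tapbpl -0.27, and Irf1, an interferon-induced activator of class I genes, 0.33 ± 0.14. The 18 had a median of -0.05.

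Of 5 tested class I-like genes outside the H2 names, none passed either rule; the 4 with the lowest p were Procr (-0.33), Azgp1 (0.16), Ulbp1 (-0.08) and Mr1 (0.03), the last a presenter of vitamin metabolites. Cd1d2 and Hfe were below the filter on all 4 arrays and Cd1d1 on 3. Of 6 tested costimulatory ligands, 4 were positive (66.7%, against 51.8% of all genes tested). Among these 6, 1 had an unadjusted limma p under 0.05 (16.7%, against 8.78% of all genes tested), Cd83. Cd83, an activation marker that holds class II at the surface, was at 5.07 and 4.98 against 4.64 and 4.64. Its difference was 0.39 ± 0.13 (SE, limma adjusted p = 0.503). Icosl, Cd86 and Cd274 had 0.25, 0.21 and -0.05.

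The 33 H2 genes with a place in the RefSeq gene table all lie on chromosome 17, as do Tap1, Tap2, Tapbp, Psmb8 and Psmb9. The 94 other tested genes between the outermost H2 genes had a median difference of -0.0011, with 5 higher and 5 lower at an unadjusted limma p under 0.05 (10.6%), against 7.53% of 571 genes elsewhere on the chromosome.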

How the data were processed

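Naive CD4+ T cells of 2 TACI-/- and 2 WT samples were measured on Affymetrix arrays and grouped by the genotype in their titles. The authors deposited 1 value per probe set and array, taken as log2 levels; the submitters' processing notes name RMA and Partek, with no version or role, and the log base is inferred from the range of values, 0.94 to 13.2. Filters of the authors are not given in the sources used here.

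Of 41345 probe sets, 23521 carried 1 symbol; each of 22180 genes was represented by its brightest. Genes with at least 2 arrays at or above the array's 40th percentile (3.74 to 3.77) were tested, 13782 in all, with limma 3.58.1 in R 4.3.3 (two-sided, genotype only, Benjamini-Hochberg, threshold 0.05). The fit was run on simulated normal values with its own means and variances, which cannot show whether these arrays meet its assumptions. The replicate numbers entered only as an alternative. Alternatives were other filters, scalings, probe set rules and variance models, and leaving out each array. Arrays of a genotype correlated at 0.982 (TACI-/-) and 0.984 (WT), and across genotypes at 0.976 to 0.981. Nothing says beyond the titles that samples came from separate mice, so p-values measure the spread between these arrays.

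Members, lists and the naming rule were chosen with earlier results of these data known. H2-K1, H2-K2 and all class II chain, class II accessory and transactivator members are named. So are other members at an unadjusted limma p under 0.05 or with the largest difference of their group. Up to 4 genes per pathway list and defining markers are named too. Further named members were chosen after their values were seen, and the rest are given by range. H2-Pb (2.49 to 2.79, below the filter) and H2-Ke6 (-0.03, an enzyme gene), which have H2- names, were kept apart from class I and class II. Sequences are from RefSeq (GRCm38.p6); 33 of the 45 members had a promoter window, and gene order was taken from the RefSeq gene table of the same build, since the array values name no build.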

Additional observations from a re-analysis of the deposited data

How the results depend on the processing

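Under the 13 alternative settings, 0 members passed an adjusted p of 0.05 in limma, and 19 of the 32 tested members kept their sign in every setting that tested them. In the 4 fits without 1 array, no gene of the whole table passed, and 686 to 1135 had an unadjusted p under 0.05. The count at an unadjusted p under 0.05, 5 members, was 1 with no moderation of the variance and 3 to 6 without 1 array. The class II chain median of 0.53 ranged from 0.16 to 0.75 without 1 array. The nonclassical class I median of -0.19 was -0.061 with no filter and -0.14 with the filter at the 20th percentile, and -0.34 to -0.11 without 1 array. The peptide supply median of -0.12 ranged from -0.16 to -0.027 without 1 array. The median of H2-K1 and H2-K2, -0.01, was 0.060 after a second quantile normalization.

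Signs turned for 13 members, with differences of at most 0.19 in size. With the second quantile normalization B2m had 0.025 and H2-K1 0.055, and with median centring Tap2 had -0.0011. Without 1 array, ranges were -0.078 to 0.017 for B2m, -0.042 to 0.22 for Calr, -0.068 to 0.44 for Ciita, -0.12 to 0.34 for H2-DMa, -0.38 to 0.0055 for H2-Eb2, -0.14 to 0.0053 for H2-K1, -0.0096 to 0.095 for H2-K2, -0.26 to 0.19 for H2-Ke6, -0.39 to 0.011 for H2-M10.4, -0.10 to 0.18 for H2-M5, -0.12 to 0.065 for H2-Ob, -0.41 to 0.034 for H2-T10, -0.16 to 0.18 for Tap2. The causes were not tested. With the replicate number as a block (replicate block), 6 members had an unadjusted p under 0.05 and 0 passed after adjustment. Of all genes tested, 13 passed after adjustment with the block, against 19 in the main fit. Same-numbered arrays did not deviate together over the genes tested (r = -0.03). A single correlation from 2 arrays per genotype cannot show whether the samples were paired, so pairing is left undecided. The number of arrays, 2 per genotype, limits the precision: members' SE ran from 0.13 to 0.27.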

Other observations

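Probe sets that the array annotation pairs with several symbols were left out of the members, and 9 of them carry a member's symbol. Their values cannot be assigned to one gene. The set paired with Cd74, the invariant chain gene, and Mir5107 was at 7.16 and 6.83 in TACI-/- cells and at 6.51 and 6.35 in WT cells, without overlap, a difference of 0.56 ± 0.18 (SE, limma over all probe sets past the low-value filter, unadjusted p = 0.0273, adjusted p = 0.527), close in size to H2-Aa, H2-Ab1 and H2-Eb1. The set paired with H2-T22 and H2-T9 was at 8.09 and 7.91 against 8.51 and 8.37, a difference of -0.44 ± 0.15 (SE, limma adjusted p = 0.566).

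The set paired with Tapbp and Zbtb22 had 0.62 ± 0.15 (SE, limma adjusted p = 0.397), of opposite sign to the probe sets of Tapbp alone. The set paired with H2-Q2 and H2-D1 had -0.07, and those paired with H2-Q6 to H2-Q9 genes had -0.19, 0.02 and -0.15. The remaining sets were below the filter on all 4 arrays. This fit was chosen after the data had been seen.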
